A study of Mus musculus with 4 samples.

Results

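Expression cluster 12 of the deposited Visium spot table held 270 of 10549 spots from 4 mouse brain hemisphere sections, and these spots carried the RNA of the brain's surface coverings together with RNA of vessel walls and of the brain tissue beside them. Visium captures the RNA of a tissue section on an array of barcoded spots, so that 1 spot can hold parts of several cells of different types. The members were all spots with the value 12 in the deposited cluster column: 27 of the wild-type section, 77 of the Dp16 section, 64 of the 5xFAD section and 102 of the 5xFAD-Dp16 section. Each genotype was represented by 1 section of 10 µm from a male mouse aged 9 months, cut between bregma 1 and -2 mm, and the labels give C57BL/6J as the strain of the wild-type mouse only. Dp16 mice carry a duplication of the stretch of mouse chromosome 16 that matches much of human chromosome 21, and serve as a model of trisomy 21. 5xFAD mice carry human amyloid precursor and presenilin transgenes with familial Alzheimer's disease mutations, expressed in neurons from the Thy1 promoter, and form amyloid plaques. The 5xFAD-Dp16 mouse carried both, and no group received a treatment. With 1 section per genotype there was no replicate check of any difference between genotypes, no test was possible, and every interval given covers counting error only.

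The leptomeninges are the thin layers of pia and arachnoid that wrap the brain and follow vessels into its fissures. Their fibroblasts secrete prostaglandin D synthase, insulin-like growth factor ligands and binding proteins, retinoic acid and collagenous matrix, and the arachnoid barrier layer carries transporters for organic anions and amino acids. Arteries run in the space between the layers, and their walls contain smooth muscle cells with an actin and myosin contractile apparatus. The markers given for this cluster were Myoc (myocilin, a secreted glycoprotein), Slc6a13 (a GABA and taurine transporter), Ptgds (prostaglandin D synthase), Dcn (decorin, a small proteoglycan of collagen fibres) and Acta2 (smooth muscle actin).

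Acta2 and Myl9 (a regulatory light chain of smooth muscle myosin) are vessel wall genes behind the words smooth muscle in the cluster's name. Both were higher in the cluster. Their promoters are shown because an exact match to the pattern of a known smooth muscle element was found in only 1 of them. The CArG box, the element bound by serum response factor, was searched as an exact pattern of CC, then only A or T, then GG. The search covered both strands from 250 bases before to 50 bases after each RefSeq start (GRCm38.p6), and the sequences shown are the 250 bases before it. It was found in the promoter of Myl9 among the 14 listed contractile genes with an entry (7.14%), in the promoter of Igf2 among 17 listed leptomeningeal genes (5.88%), and in 488 of 27025 genes of the table (1.81%). The box of Myl9, in capitals, began 161 bases before the start, in a promoter at chr2:156775214-156775463 on the plus strand.
Myl9: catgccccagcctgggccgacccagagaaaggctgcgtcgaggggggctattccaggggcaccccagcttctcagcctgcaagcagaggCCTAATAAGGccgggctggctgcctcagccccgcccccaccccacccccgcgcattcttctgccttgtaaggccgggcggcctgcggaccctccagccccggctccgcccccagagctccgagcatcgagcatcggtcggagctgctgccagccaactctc
The promoter of Acta2 lay at chr19:34255374-34255623 on the minus strand and held no exact match in this window. It held the near matches ccctatatgg and ccttgtttgg, which each differ from the searched pattern in 1 letter and were not counted. The Myl9 sequence also held such a near match, ccttgtaagg, beside its box.
Acta2: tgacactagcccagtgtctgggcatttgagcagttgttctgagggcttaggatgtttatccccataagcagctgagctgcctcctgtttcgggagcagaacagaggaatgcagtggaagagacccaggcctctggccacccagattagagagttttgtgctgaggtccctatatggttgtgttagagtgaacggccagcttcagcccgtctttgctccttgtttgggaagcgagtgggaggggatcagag
A match describes letters only, and a missing match says nothing of the factor.

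The cluster took 0.992% of the spots of the wild-type section (95% exact binomial interval 0.655 to 1.44), 3.03% of the Dp16 section (2.40 to 3.77), 2.73% of the 5xFAD section (2.11 to 3.47) and 3.47% of the 5xFAD-Dp16 section (2.84 to 4.19). Spots of 1 section are not independent, and how much surface membrane a cut retains was not recorded, so a share of spots was not read as a property of a genotype. The cluster's summed UMI counts were 219706 (wild-type), 734370 (Dp16), 401114 (5xFAD) and 809734 (5xFAD-Dp16), which set the precision of each value below. Its spots had a lower median depth than the other spots in every section, with medians of 7569, 8686, 6287.5 and 7773.5 UMIs against 11685, 10488, 9630 and 11393. The median mitochondrial share was 21.6% in the cluster spots of 5xFAD and 18.7% in those of 5xFAD-Dp16, against 14.2% and 14.5% in the other spots. In wild-type and Dp16 it was 15.5% and 16.7% in the cluster, close to the 15.2% and 16.6% outside. Of 252 distinct barcodes in the cluster, 18 occurred in more than 1 section, as array barcodes repeat between slides.

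Some spots of the cluster held RNA of tissue other than brain and leptomeninges, and the groups differ in this. In 5xFAD-Dp16 the pituitary hormone genes Cga (the common glycoprotein hormone alpha chain), Gh and Tshb had 931, 271 and 103 UMIs, and the 5 richest spots held 92.4%, 81.9% and 93.2% of them. All UMIs of Cga and Tshb lay in spots labelled Hypothalamus, where 1 spot alone held 761 of Cga. The other sections had at most 1 UMI of Cga, and Gh reached 15 UMIs in wild-type and Tshb 2 in Dp16. Haemoglobin Hbb-bs had 1350 UMIs in 5xFAD-Dp16, of which 680 lay in 5 spots labelled DG_mo and 435 in 3 spots labelled ENTI, against 225, 263 and 161 UMIs in wild-type, Dp16 and 5xFAD. In Dp16 the photoreceptor gene Pde6g had 160 UMIs in 11 spots, and the immunoglobulin gene Igkc had 148 UMIs, 119 of them in 1 spot. Several results that touch these genes are given below with and without such spots, a choice made after seeing the data.

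By the deposited region labels the cluster was spread over the cortex, the label FB, the hypothalamus and further labels. Labels that begin with Cortex and the labels ENTI, TE, ECT and PERI were grouped as cortex labels. This group held 51.9%, 46.8%, 46.9% and 59.8% of the cluster spots in the wild-type, the Dp16, the 5xFAD and the 5xFAD-Dp16 section, against 41.5%, 40.8%, 45.4% and 40.9% of the other spots. The sections differed below the cortex. The label FB held 19 of the 77 cluster spots of Dp16 (24.7%), 4 of 27 in wild-type, 8 of 64 in 5xFAD and 3 of 102 in 5xFAD-Dp16 (2.94%). The label Hypothalamus held none of the wild-type cluster spots, 8 of Dp16, 14 of 5xFAD (21.9%) and 19 of 5xFAD-Dp16 (18.6%). No cluster spot in any section was labelled CNU. Within single labels its share was highest in Cortex RSP, CL of Dp16, with 10 spots (18.2% of that label), followed by TE of 5xFAD-Dp16 (4 spots, 11.8%), DG_mo of wild-type (4 spots, 11.1%) and Cortex RSP, IL of Dp16 (12 spots, 11.0%).

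**Figure D1:**
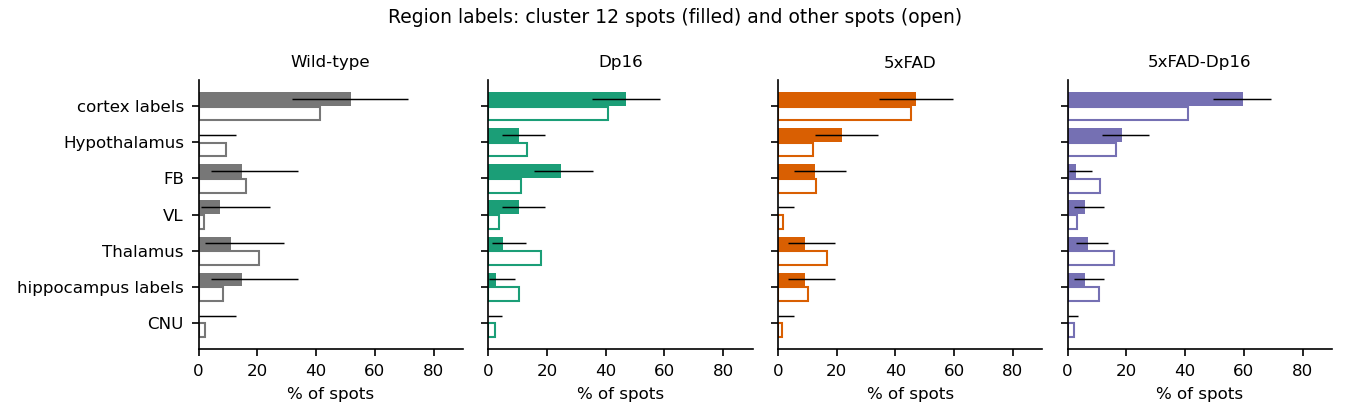
Share of spots (%) under each group of region labels in the 4 sections; filled bars are cluster 12 spots with 95% exact binomial intervals, open bars are all other spots of the section. Cortex labels hold the largest share of the cluster in each section (46.8% to 59.8%), FB is high in Dp16 (24.7%) and low in 5xFAD-Dp16 (2.94%), and CNU is at 0 throughout.

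Few cluster spots carried a deposited plaque mark. In 5xFAD 2 of 64 spots were marked (3.12%, 0.381 to 10.8), against 14.1% of the other spots, and in 5xFAD-Dp16 8 of 102 (7.84%, 3.45 to 14.9), against 13.7%. Neighbour marks stood on 17.2% of the cluster spots in 5xFAD (8.90 to 28.7), against 617 of the 2283 others, and on 20.6% in 5xFAD-Dp16 (13.2 to 29.7), against 26.0%. Neither mark occurred in wild-type or Dp16, where the exact binomial interval of 0 in 27 and 77 cluster spots reaches up to 12.8% and 4.68%.

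All 5 markers were higher in cluster 12 than in the other spots of each of the 4 sections. Values are CPM, the summed UMIs of a gene relative to all UMIs of the same spots, always with wild-type first, then Dp16, 5xFAD and 5xFAD-Dp16. Since the clusters were formed from these same genes, levels inside against outside are a description with no test. Myoc stood at 191, 347, 329 and 233 CPM in the cluster and at 3.90, 6.73, 13.7 and 4.80 CPM outside, log2 ratios of 5.62, 5.69, 4.59 and 5.60. Slc6a13 stood at 81.9, 189, 77.3 and 152 CPM against 3.19, 5.44, 4.21 and 3.81. Dcn varied most between sections, with 573, 305, 105 and 300 CPM against 11.3, 20.1, 22.2 and 11.9. The 5xFAD section was the lowest for Dcn inside the cluster and the highest outside, and in wild-type 5 spots held 81.7% of its UMIs. Ptgds reached 27664, 25622, 15592 and 24498 CPM against 908, 1621, 1264 and 1307 outside. Acta2 stood at 150, 330, 147 and 210 CPM against 8.44 to 9.28 outside, log2 ratios of 4.15, 5.27, 4.12 and 4.50. The smallest ratio of any marker in any section was that of Dcn in 5xFAD (log2 2.24, 1.75 to 2.69).

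**Figure D2:**
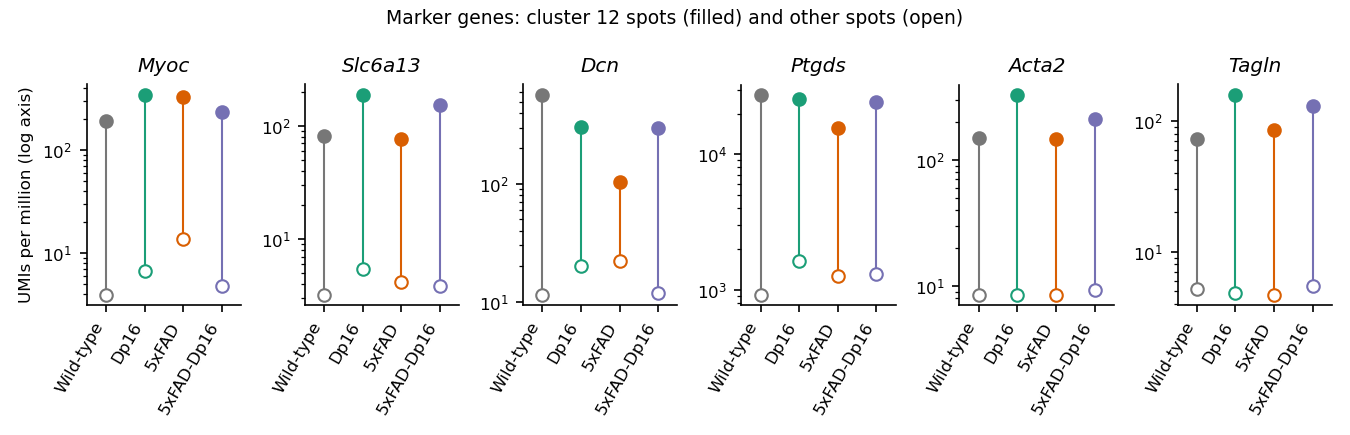
CPM (log axis) of 6 genes in the 4 sections; filled points are the summed cluster 12 spots, open points the summed other spots. Every filled point lies above its open point, with the shortest distance for Dcn in 5xFAD (105 against 22.2).

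A small group of spots held a large part of a section's UMIs of these genes. The cluster's share of all UMIs of Slc22a6, an organic anion transporter of the arachnoid barrier, was 42.5%, 57.6%, 44.9% and 61.1% in this order of sections. For Myoc the shares were 24.0%, 55.7%, 27.3% and 52.5%, and for Acta2 10.3%, 48.5%, 21.4% and 33.9%. The cluster held 16.4%, 27.8%, 16.2% and 29.9% of the UMIs of Ptgds. Its share of all UMIs was 0.639%, 2.38%, 1.54% and 2.22% in the same order.

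The genes behind the cluster's name were counted spot by spot, as a description, since the cluster was formed from expression. With every spot thinned to 2000 UMIs, a UMI of the leptomeningeal list other than Ptgds was present in 25 of 26 cluster spots of wild-type (96.2%), 66 of 75 of Dp16, 52 of 57 of 5xFAD (91.2%) and 93 of 100 of 5xFAD-Dp16, against 32.5%, 29.4%, 37.6% and 32.5% of the other spots. Thinning left out 1, 2, 7 and 2 shallower cluster spots, and unthinned the shares were 100%, 100%, 96.9% and 99.0%, against 77.6%, 73.1%, 78.2% and 78.0% outside. A UMI of Acta2, Tagln or Myh11, genes of the contractile apparatus, was present in 19.2%, 32.0%, 24.6% and 24.0% of the thinned cluster spots, against 2.51%, 2.73%, 2.85% and 3.77% outside, and in 37.0%, 55.8%, 34.4% and 47.1% unthinned. Both were present in 5 of 26, 22 of 75, 13 of 57 and 23 of 100 thinned spots, and the contractile genes alone in 0, 2, 1 and 1. With so many spots holding a leptomeningeal UMI, nothing was read from this joint presence. The contractile count rests on 3 genes and the leptomeningeal one on a longer list, and a spot with 0 contractile UMIs may hold such cells below this depth.

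The leptomeningeal content of a spot ranged widely. Without Ptgds, the list made up a median of 23.1 of 10000 UMIs in the cluster spots of wild-type (lowest 3.87, highest 59.0), 17.9 in Dp16 (1.56 to 87.8), 14.7 in 5xFAD (0 to 60.4) and 16.7 in 5xFAD-Dp16 (0 to 79.2). The medians outside the cluster were 1.49, 1.37, 1.82 and 1.52, and 27 of 27, 77 of 77, 62 of 64 and 101 of 102 cluster spots lay above them. Contractile genes had medians of between 3.02 and 5.79 per 10000, but single spots reached 65.2, 125, 45.7 and 83.9. Their medians outside the cluster were 2.13, 1.72, 1.91 and 1.91. Fewer cluster spots lay above these medians, 17 of 27, 59 of 77, 38 of 64 and 77 of 102. Single spots outside the cluster reached 18.9, 45.5, 38.7 and 23.9. The 5 spots richest in Acta2 held 90.9% of its cluster UMIs in wild-type, 121 of 242 UMIs in Dp16, and 66.1% and 44.7% in the sections with the transgenes. Over the spots of a section, the leptomeningeal content correlated with that of the contractile list by a Spearman rho of 0.06, 0.30, 0.01 and 0.27 in 27, 77, 64 and 102 spots, and with that of the neuron list by -0.27, -0.57, -0.17 and -0.36. These are descriptions over spots that share a library and a fixed total per spot.

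**Figure D3:**
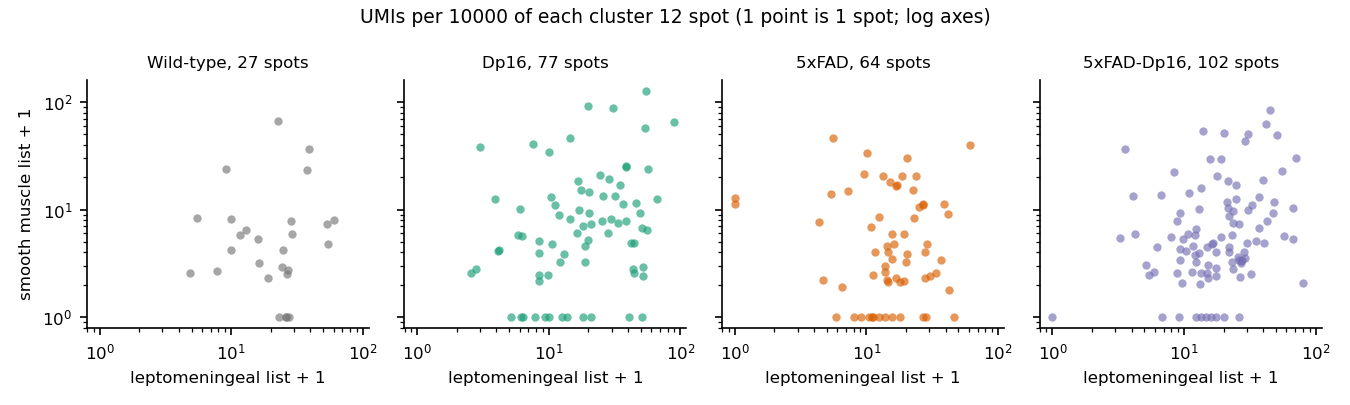
UMIs per 10000 of the leptomeningeal list without Ptgds (x, plus 1, log axis) and of the smooth muscle contractile list (y, plus 1, log axis); each point is 1 cluster 12 spot. Most spots spread along the x axis, with medians of 14.7 to 23.1 per 10000, and the highest spot of each section lies between 45.7 and 125 on the y axis.

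Across the 22 deposited clusters, cluster 12 had the highest summed level of the leptomeningeal list without Ptgds, 22.4 per 10000 UMIs, followed by 10.1 in cluster 13 and 7.83 in cluster 21. It was also highest for contractile genes (10.4, next 4.47 in cluster 1), for endothelial genes (12.8) and for genes of border macrophages (2.85). Choroid plexus genes separate it from cluster 13, with 160 per 10000 UMIs against 2893.

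Over all genes, 2968 that averaged 50 CPM or more over both kinds of spot were compared, and a gene was called where it differed at least 2-fold, with an interval that excluded equality, in each of the 3 sections with at least 60 cluster spots. Called higher were 92 genes (3.10%) and called lower 77 (2.59%). A gene found only at the surface passes the 50 CPM minimum through its level in the cluster, so counts among such genes follow from the filter. Counts without the filter are therefore given too: 15.8% of 19088 genes had a higher level in the cluster than outside in all 3 sections, with no minimum difference.

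Fibroblast genes came first by role. Of 23 leptomeningeal genes 22 had the higher level in all 3 sections. The 7 above the minimum (Myoc, Slc6a13, Ptgds, Dcn, Igf2, S100a6 and Islr) were all called higher, several having passed through their level in the cluster. As a description only, their median log2 ratios were 4.68, 3.98, 3.62 and 4.57, against medians of all genes of -0.23, -0.23, -0.26 and -0.32. Aldh1a2, which makes retinoic acid, stood at 109, 83.1, 64.8 and 115 CPM against 1.73, 2.32, 3.16 and 2.16 outside, and Crabp2, a retinoic acid binding protein, at 45.5, 40.9, 22.4 and 58.0 against 0.757 to 0.995. Both of these fell below the minimum. The forkhead factor Foxc1, needed for meningeal development, stood at 68.3, 44.9, 54.8 and 67.9 CPM against 2.66 to 4.44. Zic1, a meningeal and neural zinc finger factor, had smaller log2 ratios of 0.69, 0.74, 1.04 and 0.44.

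Transporters of the barrier layer followed. Of 9 listed, 8 had the higher level in all 3 sections. Slc22a6 stood at 77.4, 66.7, 54.8 and 54.3 CPM in the cluster and at 0.674, 1.19, 1.05 and 0.785 outside, log2 ratios of 6.84, 5.80, 5.70 and 6.11. The proline transporter Slc6a20a stood at 241, 159, 105 and 154 CPM against 7.50 to 10.3. Slc7a11, the cystine and glutamate exchanger, stood at 214, 117, 89.8 and 122 against 11.2 to 14.1. Slc13a3, a dicarboxylate transporter, stood at 105, 99.4, 57.3 and 126 against 8.72 to 10.7.

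Matrix genes were higher as a group. Of 29 listed fibrillar matrix and proteoglycan genes 27 had the higher level in all 3 sections. Above the minimum, 6 of 7 were called higher (Dcn, Fmod, Fn1, Mgp, Aebp1 and Pcolce), and Sparc, a matricellular protein also made by brain glia, was not (log2 0.08, 0.61, 0.78 and 0.32). Fmod (fibromodulin, which organises collagen fibrils) stood at 109, 182, 74.8 and 122 CPM against 1.49 to 3.08. Mgp (matrix Gla protein, an inhibitor of calcification) stood at 451, 990, 334 and 948 against 32.1, 82.6, 59.5 and 60.2. Collagen genes were scarcer, with Col1a2 at 105, 118, 57.3 and 88.9 CPM against 3.53 to 5.47. Of 15 basement membrane genes none reached the minimum, and 13 had the higher level in all 3 sections. Among them Lamb2, a laminin of vessel and pial basement membranes, stood at 105, 116, 59.8 and 85.2 CPM against 10.4 to 11.7.

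Secreted factors were called less uniformly. Of 11 genes of the IGF axis and secreted factors above the minimum, Igf2, Igfbp5, Cxcl12, Ptgds, Apod and Spp1 were called higher. Igf2 (insulin-like growth factor 2) stood at 282, 368, 162 and 274 CPM against 14.8, 42.2, 32.2 and 17.6. Igfbp2, 1 of its binding proteins, stood at 191, 440, 147 and 268 CPM against 45.7, 154, 107 and 69.3 and was not called, since the log2 ratio was 0.46 in 5xFAD.

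Vessel walls made up the second component. Of 17 contractile genes 12 had the higher level in all 3 sections, and above the minimum Acta2, Tagln and Myl9 were called higher while Tpm1, a tropomyosin also made by neurons and glia, was not (log2 0.05, 0.50, -0.40 and 0.06). Tagln (transgelin, an actin-binding protein) stood at 72.8, 159, 84.8 and 131 CPM against 4.64 to 5.47. Myl9 stood at 137, 257, 130 and 178 CPM, and between 17.2 and 19.4 outside in the 3 larger sections. Myh11, the smooth muscle myosin heavy chain, was below the minimum at 54.6, 59.9, 22.4 and 37.0 CPM, from 12, 44, 9 and 30 UMIs. Dp16 was the highest of the 4 sections for Acta2, Tagln, Myl9 and Myh11.

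Endothelial and pericyte genes were next. Summed over all members, the pericyte list had log2 ratios of 2.30, 2.82, 1.58 and 2.43, the endothelial list 1.83, 1.76, 1.29 and 1.80, and the contractile list 1.65, 2.66, 1.49 and 2.05. Of 17 endothelial genes 14 had the higher level in all 3 sections, and Cldn5, Ly6c1, Ly6a and Itm2a were called while Slc2a1, the glucose transporter of brain capillaries, was not. Cldn5 (claudin 5, of endothelial tight junctions) stood at 164, 204, 105 and 140 CPM against 38.4, 46.0, 40.7 and 31.5. Vwf, von Willebrand factor of larger vessels, was below the minimum, at 91.0, 114, 37.4 and 76.6 CPM against 3.60 to 5.84. Of the pericyte genes Vtn was called (410, 620, 262 and 452 CPM against 47.2 to 54.4), a gene that encodes vitronectin. Rgs5, which marks pericytes and smooth muscle, was not called (log2 1.79, 1.39, 0.83 and 1.41). Kcnj8 had 3, 7, 2 and 5 UMIs.

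Immune cells of the brain borders were detected at low counts. None of 14 border macrophage genes reached the minimum, and 11 had the higher level in all 3 sections. Pf4 stood at 45.5, 55.8, 42.4 and 49.4 CPM against 1.80 to 3.08, from 10, 41, 17 and 40 UMIs, and Mrc1, the mannose receptor, had 7, 15, 6 and 11 UMIs, or 13.6 to 31.9 CPM against 0.729 to 1.48. Of the microglial genes that mark the parenchyma, P2ry12 had log2 ratios of 0.44, 0.51, -0.14 and 0.55, and none of the 3 homeostatic genes above the minimum was called. Cd74, the invariant chain of MHC class II, was called higher, with 54.6, 253, 79.8 and 121 CPM against 5.04, 15.2, 25.3 and 15.9. Interferon-stimulated genes were called in 4 of 6, among them Ifitm3 with 246, 430, 175 and 391 CPM against 30.6, 41.8, 37.0 and 45.7. No gene of the lymphatic endothelial, ependymal, Schwann cell or mast cell and neutrophil lists reached the minimum, and the Schwann cell gene Ncmap had 0 UMIs in the cluster.

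Brain tissue under the membrane was the remaining component. All 14 astrocyte genes had the higher level in the 3 sections, and 6 of 13 above the minimum were called higher, among them Gfap, Aqp4, Agt, Gja1 and Gjb6. Gfap, the intermediate filament of the astrocytes that border the pia, stood at 815, 712, 1446 and 543 CPM against 62.4, 59.9, 168 and 133, and was highest in 5xFAD. None of 18 neuronal genes had the higher level in all 3 sections, and 8 of 17 were called lower. Snap25, of synaptic vesicle fusion, stood at 983, 767, 758 and 709 CPM against 2427, 1884, 2072 and 1917. Pcp4, a calmodulin regulator of neurons, had the lowest ratios by the rule, with log2 values of -1.58, -1.92, -2.02 and -2.04. None of the 10 oligodendrocyte genes was called. Choroid plexus genes were not called either (0 of 5), although Ttr, transthyretin of the choroid plexus, stood at 5976, 25920, 4326 and 12139 CPM. Its UMIs lay unevenly, with 87.8%, 74.9%, 50.5% and 89.2% in the 5 richest spots, although 74 of 77 spots of Dp16 and 54 of 64 of 5xFAD held at least 1. The label VL held 88.2% of them in 5xFAD-Dp16 and 42.7% in Dp16, and no cluster spot in 5xFAD. Kcne2, which defines that epithelium, had 3, 41, 0 and 34 UMIs.

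The makeup of the cluster varied with the region label. Over labels with at least 8 cluster spots, in Dp16 the leptomeningeal list without Ptgds was highest in FB with 37.3 per 10000 UMIs and in VL with 31.1, and lowest in Hypothalamus with 8.59, the 8 spots where contractile genes reached 22.8. Ptgds itself spanned 23.3 per 10000 in the Hypothalamus spots of Dp16 to 455 in Cortex RSP, CL of the same section. The Hypothalamus spots were also low in Ptgds in 5xFAD (81.0) and 5xFAD-Dp16 (51.7). In 5xFAD-Dp16 these 19 spots held 73.9 per 10000 UMIs of the pituitary list and 30.3 (27.7 to 33.0) of the interferon-stimulated list, against 10.4 to 14.9 of the latter in its 4 cortex labels with at least 8 spots. The 14 Hypothalamus spots of 5xFAD held 7.91 and the 8 of Dp16 6.66. Of the MHC class II list they held 6.64, 1.25 and 0.19 per 10000 in 5xFAD-Dp16, 5xFAD and Dp16. Such levels were not particular to these spots: in Dp16 the interferon-stimulated list stood at 43.1 in VL and 26.9 in FB, and the MHC class II list at 7.79 and 15.01.

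The cluster was then compared between sections. The first pair, 5xFAD-Dp16 over 5xFAD, differs by the duplication on the 5xFAD background, and the second, 5xFAD-Dp16 over Dp16, by the transgenes on the duplication. Both pairs share the 5xFAD-Dp16 section and are set side by side without a measure of overlap. In summed spots, fewer cells of a type and less RNA per cell cannot be told apart. Of 2741 genes that averaged 50 CPM or more in the first pair, 46 were called higher in 5xFAD-Dp16 (1.68%) and 53 lower (1.93%). Of 2779 in the second pair, 17 were called higher (0.612%) and 22 lower (0.792%). The median log2 ratio of all genes was -0.04 in the first pair and -0.08 in the second. Scaling by TMM factors put the latter at 0.04, so list medians below have the all-gene median subtracted, except where left-out spots or region labels are named. Differences between 2 sections hold the differences between 2 animals, 2 cuts and 2 slides as well as the genotype, and these cannot be told apart.

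Several genes of the surface membranes were called higher in 5xFAD-Dp16 than in 5xFAD. The cluster spots of 5xFAD also had the lowest median depth of the 4 sections and the highest mitochondrial share, as given above. Over spots, leptomeningeal content correlated with the mitochondrial share by a Spearman rho of -0.55, -0.40 and -0.56 in the Dp16, 5xFAD and 5xFAD-Dp16 sections, and the part of either in the result was not tested. Igfbp4 (a binding protein that restrains insulin-like growth factors) stood at 132, 189, 37.4 and 158 CPM, and its log2 ratio of 2.08 (1.30 to 2.96) in the first pair compared with -0.04 in the other spots. The 5xFAD section was the low one of the 4. Igfbp7 stood at 178, 278, 82.3 and 246 CPM (log2 1.58, 1.04 to 2.16), Mgp at the levels given above (1.51, 1.24 to 1.78, and 0.02 outside) and Dcn likewise (1.52, 1.04 to 2.03, and -0.90 outside). For Igfbp7 and Dcn too, 5xFAD was the lowest of the 4 sections. Slc13a4, a sulfate transporter of the leptomeninges, stood at 150, 105, 39.9 and 116 CPM (1.54, 0.77 to 2.41), Bgn (biglycan) at 100, 109, 34.9 and 96.3 (1.46, 0.63 to 2.40) and Efemp1 (fibulin 3) at 141, 105, 44.9 and 133 (1.57, 0.84 to 2.38). Without the spots with hormone, Pde6g or most blood UMIs, Bgn stood at 0.76 and Efemp1 at 0.97, both below 2-fold, and Slc13a4 at 1.80. For Slc13a4, Bgn and Efemp1 the other 3 sections lay above 5xFAD. Myoc went the other way, with 329 CPM in 5xFAD and 233 in 5xFAD-Dp16 (-0.50, -0.82 to -0.16), and was not called.

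Counted by list in the first pair, 2 of 13 leptomeningeal genes were called higher (Dcn and Slc13a4) and Zic1 lower, with a median of 0.69 relative to all genes. The median was 0.75 for 11 matrix genes (3 called higher), 0.95 for 13 genes of the IGF axis and secreted factors (5 called higher), 0.81 for 6 transporters (2 called higher) and 0.53 for 4 contractile genes (none called). Summed over their members, the lists differed by log2 0.63 (0.59 to 0.67) for leptomeningeal genes, 0.71 (0.58 to 0.83) for matrix and 0.52 (0.32 to 0.73) for contractile genes in the cluster, and by -0.01, -0.11 and -0.04 in the other spots. Ptgds alone held 19837 of the 21656 leptomeningeal UMIs of the cluster in 5xFAD-Dp16 and 6254 of 6936 in 5xFAD, so that the leptomeningeal sum is mostly 1 gene. Glial and neuronal genes had the opposite direction: 5 of 14 astrocyte genes were called lower (Gfap, Aqp4, Agt, Mlc1 and Fgfr3), with a median of -0.44, and 2 of 10 oligodendrocyte genes (Mag and Ermn), with a median of -0.89 and none of the 10 above 0. Of 15 neuronal genes 1 was called lower (Gad2) and 12 were below 0, with a median of -0.43. Over all genes of this pair 1501 of 2741 were below 0. Agt, angiotensinogen of astrocytes, stood at 223, 197, 386 and 137 CPM (-1.50, -1.86 to -1.13). A2m, a protease inhibitor, stood at 18.2, 83.1, 122 and 23.5 CPM (-2.38, -3.23 to -1.59, and -0.62 outside).

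Over region labels that both sections share, the surface lists were close to all genes or turned in sign. Over the 3 region labels with at least 8 cluster spots in both sections (10 and 8 spots of Cortex AUC, 13 and 10 of Cortex OLF, 19 and 14 of Hypothalamus), the median log2 ratio in the first pair was 0.03 for leptomeningeal genes, -0.29 for matrix genes, -0.02 for transporters, 0.17 for IGF axis genes and -0.31 for contractile genes, against 0.05 for all genes. It was 0.98 for interferon-stimulated genes, 1.12 for MHC class I genes, -0.56 for astrocyte genes and -0.25 for oligodendrocyte genes. Among single genes, Igfbp4 stood at 1.43, Igfbp7 at 1.23, Mgp at 1.29, A2m at -2.64 and Slc13a4 at 0.31. Without the 37 spots of 5xFAD-Dp16 and 5 of 5xFAD that held a UMI of Cga, Gh, Tshb or Pde6g or were richest in blood genes, the medians were 0.52 for leptomeningeal, 0.55 for matrix and 0.85 for IGF axis genes, with all genes at -0.01.

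Of the interferon-stimulated genes 2 of 6 were called higher in the first pair, of MHC class II genes 1 of 2 and of MHC class I genes 0 of 4. Ifitm3, a membrane protein that restricts virus entry, stood at 246, 430, 175 and 391 CPM (1.17, 0.79 to 1.56, and 0.30 outside), and Ifi27l2a at 63.7, 242, 64.8 and 175 (1.44, 0.83 to 2.10, and 1.16 outside). The median of the 6 was 0.95 relative to all genes. H2-Aa, a chain of MHC class II, stood at 45.5, 118, 24.9 and 76.6 CPM (1.62, 0.64 to 2.75, and -0.85 outside), and at 0.91, below 2-fold, without the spots with hormone, Pde6g or most blood UMIs. The median of the MHC class I genes was 0.85. Dp16 was the highest section for Ifitm3, Ifi27l2a and H2-Aa. Without the spots with hormone, Pde6g or blood UMIs the medians in the first pair were 0.66 for interferon-stimulated genes and 0.48 for MHC class I genes. The pituitary and blood lists moved with the same section, at 0.174% and 0.367% of the cluster's UMIs in 5xFAD-Dp16 against 0.00199% and 0.0790% in 5xFAD. Their part in the remaining difference was not tested.

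The highest ratios of both pairs belonged to hormone genes. Cga stood at 4.55, 1.36, 0 and 1150 CPM and was higher in 5xFAD-Dp16 than in 5xFAD, listed at 0 UMIs, by at least 7.26 on the log2 scale (against a floor of 3 counts in the summed spots). Gh stood at 68.3, 0, 2.49 and 335 CPM. As given above, these UMIs came from few spots, and all 4 haemoglobin genes were called higher in both pairs as well. Without the 5 richest spots of each section the median of the blood list in the first pair was -0.092, in place of 2.22.

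In the second pair few genes of any kind were called, 0.612% of all genes higher and 0.792% lower. None of 13 leptomeningeal, 13 matrix, 13 IGF axis, 6 transporter, 6 contractile or 6 endothelial genes was called in either direction, which is near those shares. Their medians relative to all genes were 0.01, -0.30, -0.06, 0.09, -0.51 and 0.13. In the same order 9, 13, 11, 3, 6 and 3 of them were below 0, against 1720 of all 2779 genes. Contractile genes were lower in 5xFAD-Dp16 than in Dp16 by a summed log2 of -0.49 (-0.63 to -0.36), against 0.11 in the other spots. Acta2, with the most UMIs of the list, had 242 in Dp16 and 170 in 5xFAD-Dp16 (330 and 210 CPM, -0.65, -0.94 to -0.36). Choroid plexus genes were lower, 3 of 5 called (Ttr, Ecrg4 and Calml4), with a summed log2 of -1.08 in the cluster and -1.13 in the other spots. MHC class II genes were lower, with Cd74 and H2-Ab1 called of 4, but the median ratio of the list became 0.13 without spots that held over 1% of their UMIs in choroid plexus or pituitary genes (12 spots of 5xFAD-Dp16 and 14 of Dp16).

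Microglial and complement genes had higher ratios outside the cluster than inside it in the second pair. C1qa, of the complement initiator made by microglia, stood at 237, 281, 232 and 240 CPM in the cluster and at 93.0, 80.4, 196 and 180 outside, and its log2 ratio was -0.23 (-0.52 to 0.06) inside and 1.17 outside. C4b stood at 91.0, 249, 322 and 180 CPM inside and at 22.8, 23.0, 59.0 and 58.2 outside, ratios of -0.47 (-0.79 to -0.15) and 1.34. Trem2, a lipid receptor of microglia around plaques, had ratios of 0.15 (-0.52 to 0.83) inside and 2.14 outside, and Tyrobp, its adaptor, 0.36 (0.07 to 0.64) and 1.79. Outside the cluster both 5xFAD sections lay above the others for C1qa and C4b. Inside it C1qa lay between 232 and 281 CPM in all 4 sections, while C4b was lowest in wild-type and highest in 5xFAD. As lists, complement differed by a summed log2 of -0.18 (-0.30 to -0.05) inside and 1.00 outside, homeostatic microglia by 0.13 (-0.07 to 0.33) and 0.76, and MHC class I by -0.04 (-0.17 to 0.09) and 0.73. These differences between inside and outside were not tested. In the 8 and 19 spots labelled Hypothalamus alone, the cluster's median was 1.13 for complement and 1.30 for MHC class I, while without choroid plexus or pituitary spots it was 0.16 and 0.30. After thinning, a UMI of Cst7, a cystatin of plaque microglia, was present in 5.26% of the cluster spots of 5xFAD and 9.00% of those of 5xFAD-Dp16 (14.1% and 14.7% unthinned), against 11.3% and 10.4% outside (29.0% and 25.4%), and in 0 of 75 and 0 of 26 cluster spots of Dp16 and wild-type.

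**Figure D4:**
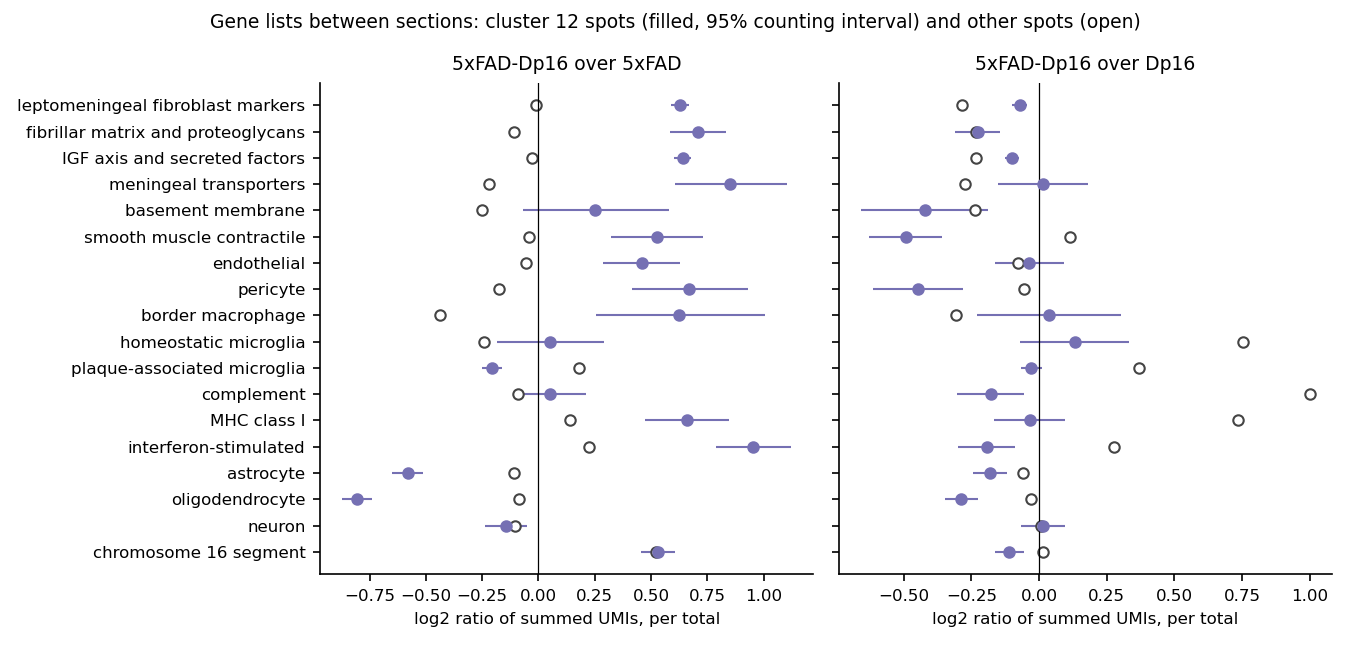
Log2 ratio of summed UMIs of 18 gene lists, each per total UMIs, for 5xFAD-Dp16 over 5xFAD (left) and over Dp16 (right); filled points with 95% counting intervals are cluster 12 spots, open points the other spots. On the left the leptomeningeal, transporter, matrix and IGF axis lists lie at 0.63 to 0.85 in the cluster and near or below 0 outside, and on the right complement lies at -0.18 in the cluster and 1.00 outside. Ptgds belongs to both the leptomeningeal and the IGF axis list and holds most of their UMIs in the cluster.

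None of 14 genes of the neuron list was called in the second pair, and the median was -0.03. Of these 14 genes 10 were below 0, near the share over all genes (1720 of 2779). Single neuronal genes outside that list were called higher. Bc1, a neuronal non-coding RNA, stood at 6126, 5128, 8758 and 16092 CPM (1.65, 1.60 to 1.70, and 1.36 outside). Thy1, whose promoter drives the transgenes, stood at 300, 257, 651 and 629 CPM (1.29, 1.05 to 1.54, and 1.31 outside), so that both sections with the transgenes lay above both without. Over the Hypothalamus spots alone, the one label with at least 8 cluster spots in both sections, Thy1 turned to -0.52. Cck, a neuropeptide gene, stood at 810, 425, 401 and 921 CPM (1.12, 0.92 to 1.31, and 0.34 outside), and at 0.83, below 2-fold, without the spots with hormone, Pde6g or most blood UMIs. The glucocorticoid-responsive genes Tsc22d3 and Sgk1 stood at 141, 58.6, 67.3 and 127 CPM and at 118, 42.2, 47.4 and 91.4 CPM, and were called higher (1.12 and 1.11, and 0.23 and 1.00 outside). For these 2 genes wild-type and 5xFAD-Dp16 lay above the other sections, in the cluster and in the other spots. Igkc (-1.96) and Pde6g (-4.46) were called lower, and in Dp16 the 5 richest spots held 90.5% and 93.8% of their UMIs. Without the 5 richest spots of each section the ratios, from few UMIs, were -3.98 and -1.91. A2m was called lower here as well (-1.82, -2.65 to -1.06, and 0.32 outside), at 61 UMIs in Dp16 and 19 in 5xFAD-Dp16.

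The duplicated segment was visible inside the cluster. The segment was taken as chromosome 16 from 75540514 to 97962627 (GRCm38), where 112 genes of the file lie. In the first pair, which differs in copies, 21 segment genes passed the minimum, and their median log2 ratio of 0.59 in the cluster (0.63 relative to all genes) compared with 0.59 in the other spots and with 0.585 for a 1.5-fold change. Of these 21 genes 20 had a ratio above 0, against 1240 of all 2741 genes. The exception was Sod1, copper-zinc superoxide dismutase, at 214, 316, 312 and 291 CPM (-0.10, -0.42 to 0.23). Called higher were Cryzl1 (1.20, 0.35 to 2.15) and Pigp (1.10, 0.52 to 1.73), the latter of GPI anchor synthesis, with 118, 178, 74.8 and 161 CPM. Hmgn1, a nucleosome-binding protein, stood at 150, 260, 145 and 270 CPM (0.90, 0.48 to 1.35), so that both sections with the duplication lay above both without it. Not every segment gene had this order. Wild-type was the highest section for Pcp4 (787, 554, 389 and 551 CPM) and Olig1 (237, 188, 162 and 203 CPM). Ifnar2, which encodes part of the type I interferon receptor, stood at 45.5, 87.2, 42.4 and 70.4 CPM (0.73, -0.07 to 1.61) and was not called. In the second pair, equal in copies, 25 segment genes had a median of -0.12 (-0.04 relative to all genes) and none was called. The lowest was Clic6, a choroid plexus gene, at -0.79 (-1.41 to -0.18) in the cluster and -1.01 outside.

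**Figure D5:**
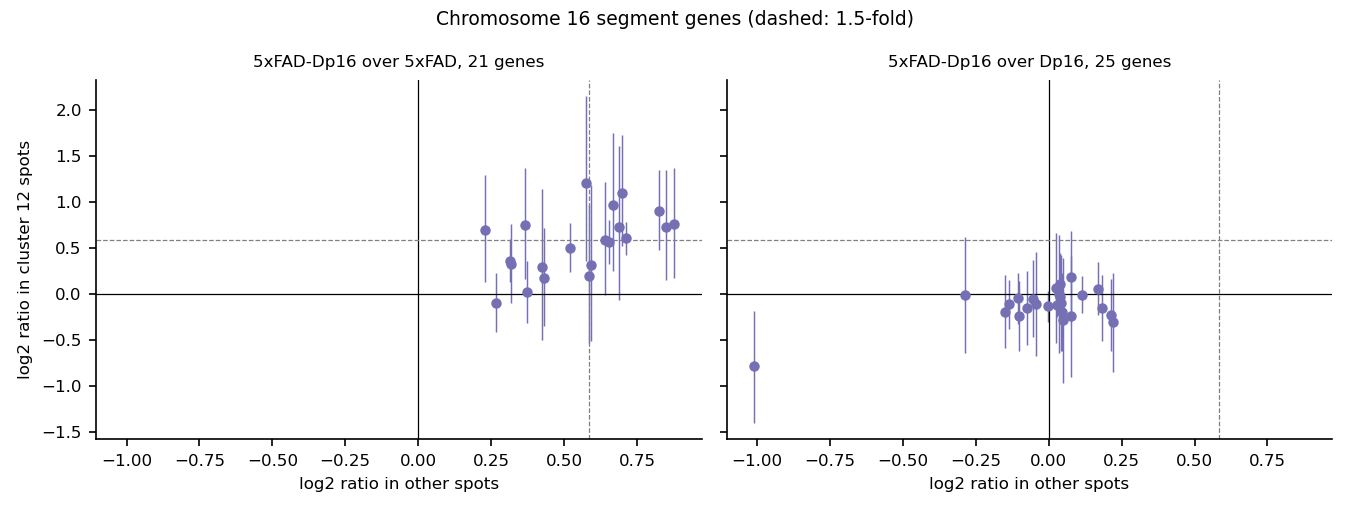
Log2 ratio of chromosome 16 segment genes in the other spots (x) and in cluster 12 (y, with 95% counting intervals) for 5xFAD-Dp16 over 5xFAD (left, 21 genes) and over Dp16 (right, 25 genes); dashed lines mark 1.5-fold. On the left 20 of 21 points lie above 0 with a median of 0.59 on both axes, and on the right 4 of 25 lie above 0 and Clic6 (-0.79) is the lowest.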

How the data were processed

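Visium RNA counts from 4 sections, 1 per genotype, were used. The deposited matrix holds raw UMI counts of 19090 genes per spot, and the authors' spot table gives the percent of mitochondrial counts, cluster, region label and plaque marks. Space Ranger, Seurat and mm10 are named in the submitters' processing notes. Versions, and how clusters, region labels and plaque marks were made, are not given in the sources used here; region abbreviations were not expanded. All deposited spots were kept and no doublet caller was run. Members and gene lists were chosen with earlier results of these data known.

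UMIs were summed over the cluster's spots and over all other spots of a section and scaled to CPM. Ratios have exact conditional binomial (Clopper-Pearson) 95% intervals, shares exact binomial ones; both cover counting error only. Ratios against 0 UMIs used 3 counts as the lower bound. Called means at least 2-fold with an interval that excludes equality, among genes of at least 50 CPM on average. Spots are not replicates, so there is no p-value. Named genes are the 5 markers, the 30 highest and 10 lowest in the cluster, the 12 highest and 12 lowest of each pair (ranked by the smaller of the ratio with and without the 5 richest spots), 8 and 3 segment genes, and each list's 3 most abundant members and both extremes; other list members were named after their values were seen. On simulated Poisson counts of the 3 kinds of comparison, 58.2%, 59.7% and 53.7% of genes changed 2-fold were called, 98.5%, 100% and 100% of those changed 4-fold, and at most 0.197% of unchanged genes. The simulated counts held no spread between animals, sections or spots, so these are not error rates for differences between sections. Promoters came from RefSeq (GRCm38.p6).

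Alternatives were TMM factors (edgeR), totals without mitochondrial, ribosomal and haemoglobin genes, mean per-spot CPM, region weighting, left-out spots, minimums of 20 and 100 CPM and folds of 1.5 and 4. Leaving out spots with Cga, Gh, Tshb or Pde6g, or most blood UMIs, was added after seeing the data. Tools were Python 3.11.15, numpy 2.4.6, scipy 1.17.1, pandas 2.3.3, matplotlib 3.10.9, R 4.3.3 and edgeR 4.0.16.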

Additional observations from a re-analysis of the deposited data

Results flagged for a closer look

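Several lists differed between 5xFAD-Dp16 and 5xFAD in opposite directions inside cluster 12 and in the other spots of the same sections, each with an interval on its side of 0. The differences between inside and outside were not tested. Inside the cluster the summed log2 ratio was 0.85 for meningeal transporters (-0.22 in the other spots), 0.71 for fibrillar matrix and proteoglycans (-0.11), 0.64 for the IGF axis and secreted factors (-0.03) and 0.67 for pericyte genes (-0.18). It was 0.62 for border macrophage genes (-0.44) and 0.95 for MHC class II genes (-0.25). It was 1.35 for choroid plexus genes (-0.41), 2.22 for blood genes (-0.42) and 0.62 for lymphocyte and plasma cell genes (-1.02). The IGF axis sum was mostly Ptgds, with 19837 of 22977 cluster UMIs in 5xFAD-Dp16 and 6254 of 7306 in 5xFAD. The label VL held 6 cluster spots of 5xFAD-Dp16 and 0 of 5xFAD, 5 spots of 5xFAD-Dp16 held 89.2% of the Ttr UMIs, and the blood median was -0.092 without the 5 richest spots of each section. In 5xFAD-Dp16 over Dp16 the lymphocyte and plasma cell genes were at -1.12 inside the cluster and 0.37 outside, where 119 of the 148 Igkc UMIs of Dp16 came from 1 spot.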

How the results depend on the processing

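Of 267 values of list medians for the cluster over other spots, 256 stayed within their spread and 1 reversed (blood genes in Dp16, -0.35 with other spots weighted to the cluster's region labels); of 340 between sections, 269 stayed and 14 reversed. The cluster's share of each section's spots stayed within its interval without spots under 1000 UMIs. No paired analysis was possible because each genotype had 1 section. Counts follow the threshold by construction. Genes higher and lower in the cluster numbered 207 and 116 at 20 CPM, 42 and 45 at 100 CPM, 167 and 362 at 1.5-fold, and 32 and 0 at 4-fold; 47 were lower without mitochondrial, ribosomal and haemoglobin genes in the totals and 31 with mean per-spot CPM. The leptomeningeal median of 5xFAD was 2.33 at 100 CPM, where fewer genes enter. In 5xFAD-Dp16 over 5xFAD, higher and lower genes numbered 132 and 211 at 20 CPM, 19 and 12 at 100 CPM, 140 and 202 at 1.5-fold, and 8 and 1 at 4-fold. With TMM factors 31 were lower. Without the 5 richest spots of each gene 137 were higher, the segment median was 0.78 and the blood median -0.092. Over the region labels with at least 8 cluster spots in both sections 74 were higher, the segment median was 0.91 and the contractile median -0.31. In 5xFAD-Dp16 over Dp16 they numbered 76 and 176 at 20 CPM, 7 lower at 100 CPM, 47 and 158 at 1.5-fold, and 7 and 1 at 4-fold, with 14 lower under TMM factors. The segment median was 0.0075 with TMM factors and -0.028 without mitochondrial, ribosomal and haemoglobin genes. Without spots holding hormone, Pde6g or most blood UMIs, 11 were higher and 67 lower. Without choroid plexus or pituitary spots, medians became positive for matrix (0.056), IGF axis (0.11), MHC class II (0.13), interferon-stimulated (0.015) and oligodendrocyte genes (0.031) and Clic6 (0.022). Over the label Hypothalamus alone, with 19 and 8 spots, 150 were higher and 187 lower, the segment median was -0.30, and signs reversed for matrix (0.99), IGF axis (0.52), MHC class II (3.18), interferon-stimulated (2.32), choroid plexus (0.96) and oligodendrocyte genes (1.03), Ecrg4 (2.62), Lrrc17 (-0.088) and Thy1 (-0.52). Where no construction is named, the cause was not tested. The 27 wild-type spots limit that section to values, and UMI depth limits genes below 50 CPM, such as those of border macrophages.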

Other observations

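Of 9 genes of amyloid and lipoprotein handling 4 had a higher level in cluster 12 than outside in all 3 sections, and of 3 above the minimum Apoe alone was called. Apoe, the main lipid carrier of the brain, stood at 6272, 6122, 5973 and 4831 CPM from wild-type through Dp16 and 5xFAD to 5xFAD-Dp16, with log2 ratios over the other spots of 1.81, 1.75, 1.37 and 1.38. Clu (clusterin, also a carrier of amyloid peptide) stood at 2103, 1960, 2144 and 1344 CPM. The list, whose UMIs are mostly those of Apoe and Clu, differed by a summed log2 of -0.38 (-0.44 to -0.32) in 5xFAD-Dp16 over 5xFAD and -0.39 (-0.44 to -0.33) over Dp16, against -0.31 and -0.02 in the other spots, and none of its 3 tested members was called in either pair. The summed immediate early list differed by 0.39 (0.11 to 0.67) over 5xFAD and 0.43 (0.20 to 0.66) over Dp16, against -0.15 and 0.38 outside. In the first pair the 2 tested members, Jun and Egr1, stood at 0.13 and -0.05, in the second Jun stood at 0.68, and none was called.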
